A study of Mus musculus with 48 samples.

Results

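The interferon inducible GTPases described here are 9 mouse genes of 2 related families, the guanylate binding proteins Gbp2, Gbp3, Gbp6, Gbp7 and Gbp8 and the immunity related GTPases Iigp1, Igtp, Irgm1 and Irgm2. A gene was taken where a probe set of the array is annotated to that symbol alone, and the probe set of highest mean signal stood for it. All 9 genes had such a probe set, out of 18194 genes on the array, and all 9 were among the 13648 genes tested. Gbp2, Gbp6, Gbp7 and Iigp1 each had a second probe set, which makes 13 in all.

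The samples were skin of C3H/HeJ mice on 48 Affymetrix arrays, of which 47 fall into 13 groups by their titles. From what is known of the study, C3H/HeJ mice model alopecia areata, an autoimmune hair loss, and the question was whether blocking the interleukin 15 pathway prevents it. Week 5 held il15rb (n = 3), phosphate buffered saline (PBS) titled ip (n = 4) and sham (n = 4). The week 5 PBS ip skins are known from the study as vehicle injected grafted skin, and later weeks as later after grafting. Week 6 held jak3i (n = 5), PBS titled pump (n = 3), jak12i (n = 5) and PBS titled oral, called PBS gavage here (n = 5). Week 13 held il15rb, PBS ip, jak3i, PBS pump, jak12i and PBS gavage with 3 arrays each. The agents are known from the study as an antibody to the beta chain of the interleukin 15 receptor (il15rb), tofacitinib, a kinase inhibitor named here for JAK3 (jak3i), and ruxolitinib, an inhibitor of JAK1 and JAK2 (jak12i). The labels used here tie no agent to a route, so the pairing with PBS ip, PBS pump and PBS gavage rests on what is known of the study, and dose, age and sex are not given in the sources used here. One array titled PBS ip at week 5 carries the treatment label of the antibody group and entered no comparison. Whole skin is a mixture of cells, so fewer cells of a type and less RNA per cell cannot be told apart.

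Guanylate binding proteins and immunity related GTPases are among the genes most strongly induced by interferon gamma, through JAK1, JAK2 and IRF1. They bind GTP, gather on the vacuoles in which intracellular bacteria and parasites live, and help to break them open or to hand them to the autophagy machinery. Iigp1 is an effector that loads onto such vacuoles, whereas Igtp, Irgm1 and Irgm2 are regulators that keep effectors inactive on the cell's own membranes. The guanylate binding proteins form coats on vacuoles and bacteria, and Gbp2 in mice is one of the best studied of them.

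The DNA just before these genes is shown first, because the signals of the members rose and fell together and interferon is known to act on them through short motifs there. RefSeq promoter windows (250 bases before to 50 after each gene's start, GRCm38.p6) were at hand for Gbp2, Gbp3, Gbp7, Igtp, Irgm1 and Irgm2, which is 6 of the 9 genes. Gbp6, Gbp8 and Iigp1 are named only. Both strands were searched for the core of the interferon stimulated response element, GAAANNGAAA, and for the gamma activated site, TTCNNNGAA, which reads the same on both strands. No match of one motif overlapped a match of the other. The stretches below are 80 bases each, or 88 for Gbp7 so that both of its gamma activated sites are whole, 5′ to 3′ on the gene's strand, and capitals mark the matches to either motif.
Gbp2, chr3:142620559-142620638, plus strand: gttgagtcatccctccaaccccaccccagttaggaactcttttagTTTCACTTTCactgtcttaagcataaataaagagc
Gbp7, chr3:142530230-142530317, plus strand: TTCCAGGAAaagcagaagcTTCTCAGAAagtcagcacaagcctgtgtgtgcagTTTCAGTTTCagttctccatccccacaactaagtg
Igtp, chr11:58199476-58199555, plus strand: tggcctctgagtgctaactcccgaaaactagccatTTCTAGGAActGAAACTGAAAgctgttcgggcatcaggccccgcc
Irgm2, chr11:58214868-58214947, plus strand: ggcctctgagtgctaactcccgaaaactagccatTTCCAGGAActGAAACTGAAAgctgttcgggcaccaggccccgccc
Irgm1, chr11:48871421-48871500, minus strand: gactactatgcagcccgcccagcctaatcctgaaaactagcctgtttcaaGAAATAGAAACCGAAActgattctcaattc

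The response element core was present before each of the 6 genes, within 64 bases of the start used. Gbp3 had 2 windows, and only 1 of them held a match to either motif. Its stretch is not printed, because it would reach into an annotated transcript. It was on the opposite strand to the gene before Gbp2, Gbp3 and Gbp7 and on the same strand before Igtp, Irgm1 and Irgm2, and Gbp3 and Irgm1 each held a pair of overlapping copies. Among all 27025 genes with a window, 3.99% held the core. The gamma activated site was present before Gbp7, Igtp and Irgm2, against 9.55% of all genes, and Gbp7 held it at bases -106 to -98 and -87 to -79. Igtp and Irgm2, which neighbour each other in RefSeq, have promoters that share an unbroken run of 61 bases and are 68.1% identical over 270 aligned bases. In both of them the gamma activated site lies just before the response element core. The genes belong to families known to be interferon inducible, so these matches describe the windows and bear on no comparison below.

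**Figure D1:**
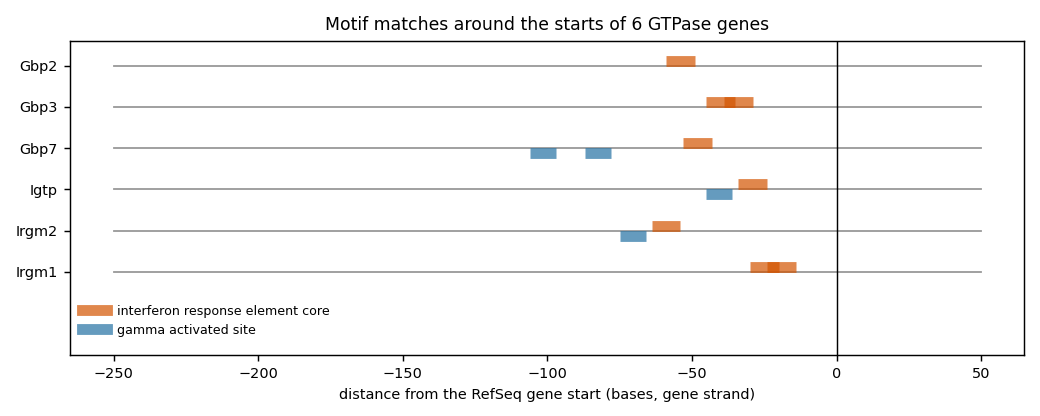
Positions of both motifs around the RefSeq starts of Gbp2, Gbp3, Gbp7, Igtp, Irgm2 and Irgm1, in bases from the start on the gene's strand. Orange bars are the response element core and blue bars are the gamma activated site, darker where copies overlap, and all matches lie before the start, within 106 bases of it.

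At week 13 all 9 genes were lower in the treated skins than in the PBS skins of the same route, with each of the 3 agents. Gbp8 had 5.99, 6.01 and 6.40 (log2 signal) with il15rb, against 10.38, 8.72 and 9.70 with PBS ip. With jak3i it had 5.49, 5.45 and 5.35, against 9.89, 10.24 and 10.21 with PBS pump, and with jak12i 5.48, 6.34 and 6.05, against 10.16, 9.68 and 10.23 with PBS gavage. Every treated array lay more than 2 log2 units below every PBS array for this gene. The log2 change of Gbp8 was -3.47 ± 0.64 (SE) with il15rb, an 11.1-fold fall, -4.68 ± 0.64 with jak3i, a 25.7-fold fall, and -4.06 ± 0.64 with jak12i, a 16.7-fold fall. The limma adjusted p-values were 0.000154, 1.57e-06 and 2.18e-05, with 3 arrays a group and Benjamini-Hochberg adjustment over all genes tested. Gbp8 was above the table's median, the filter on dim genes, in only 12 of the 47 arrays, which were PBS arrays, so it entered the test through the groups in which it was high. With jak3i its mean of 5.43 lay just above 5.38, the highest 25th percentile of signals on any array of week 13. Its fall with jak3i may thus be understated.

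All 9 members passed at an adjusted p of 0.05 with il15rb against PBS ip at week 13, where 10.6% of all genes tested were called lower. All 9 also passed with jak3i against PBS pump, against a background of 6.32%, and with jak12i against PBS gavage, against a background of 10.3%. The treated and PBS arrays did not overlap for any of the 9 genes in any of the 3 comparisons, while 16.1%, 11.9% and 17.7% of all genes lay apart and lower in the comparisons of il15rb, jak3i and jak12i. The median change of the members was -1.95 with il15rb, -3.25 with jak3i and -2.38 with jak12i on the log2 scale. These p-values and the SEs reflect only how much arrays within groups differ, with 1 spread per gene shared by all 13 groups. For Gbp8 the SE was thus 0.64 in all 3 comparisons, though its SD was 0.07 with jak3i and 0.83 with PBS ip. A shared spread can be too wide for some groups and too narrow for others. The series' design text speaks of biological replicates without tying each array to its own animal.

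Among the immunity related GTPases, the effector Iigp1 had 9.48, 10.35 and 9.73 with il15rb, against 12.73, 12.21 and 12.41 with PBS ip. It had 9.33, 8.89 and 9.77 with jak3i, against 12.86, 12.80 and 13.25 with PBS pump. It had 9.89, 11.01 and 10.25 with jak12i, against 12.83, 13.04 and 13.16 with PBS gavage. The 9 PBS arrays thus kept within a narrow band, and the treated arrays lay well below it. The change was -2.59 ± 0.73 with il15rb (adjusted p = 0.00868), -3.64 ± 0.73 with jak3i (adjusted p = 0.000572) and -2.63 ± 0.73 with jak12i (adjusted p = 0.00903), all by limma.

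The regulators fell with it. Igtp averaged 9.52 ± 0.37 with il15rb and 12.08 ± 0.51 with PBS ip (SD, n = 3 each), 8.74 ± 0.33 with jak3i and 12.48 ± 0.32 with PBS pump, and 9.76 ± 0.56 with jak12i and 12.45 ± 0.13 with PBS gavage. Irgm1, which also acts in autophagy and in the survival of blood cells, changed by -1.64 ± 0.50 with il15rb, -2.92 ± 0.50 with jak3i and -2.15 ± 0.50 with jak12i. Irgm2 had 8.46, 8.99 and 8.34 with il15rb, against 10.72, 10.39 and 10.53 with PBS ip, and it changed by -1.95 ± 0.62. Its change was -3.25 ± 0.62 with jak3i and -2.47 ± 0.62 with jak12i.

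The other guanylate binding proteins fell as well. Gbp2 had 9.45, 9.88 and 9.51 with il15rb, against 11.95, 10.51 and 11.63 with PBS ip. The PBS ip group had 1 low array, replicate 2, which was the lowest of its group for all 9 members. Gbp2 changed by -1.75 ± 0.43 with il15rb, -2.72 ± 0.43 with jak3i and -1.75 ± 0.43 with jak12i. Gbp6 changed by -2.33 ± 0.60, -3.37 ± 0.60 and -2.38 ± 0.60 in the same order of agents, and Gbp7 by -1.49 ± 0.39, -2.48 ± 0.39 and -1.71 ± 0.39. Gbp3 had the smallest change with il15rb and with jak12i, -1.31 ± 0.43 and -1.48 ± 0.43, and with jak3i it changed by -2.55 ± 0.43. The second probe sets of Gbp2, Gbp6, Gbp7 and Iigp1 also changed downwards in all 3 comparisons, from -1.56 for Gbp7 with il15rb to -3.53 for Iigp1 with jak3i.

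Some calls at week 13 were lost when 1 array was left out. In the comparison of il15rb with PBS ip at week 13, Gbp3 had an adjusted p of 0.147 without PBS ip replicate 1, 0.0856 without PBS ip replicate 3, 0.0853 without il15rb replicate 1 and 0.0695 without il15rb replicate 3. Irgm2 had adjusted p-values of 0.0679, 0.0585, 0.0549 and 0.0698 without the same arrays, and Irgm1 had 0.0779 without PBS ip replicate 1 and 0.0521 without PBS ip replicate 3. With jak12i, Gbp3 had an adjusted p of 0.0835 without PBS gavage replicate 3. With jak3i all 9 members were called under every alternative tried.

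**Figure D2:**
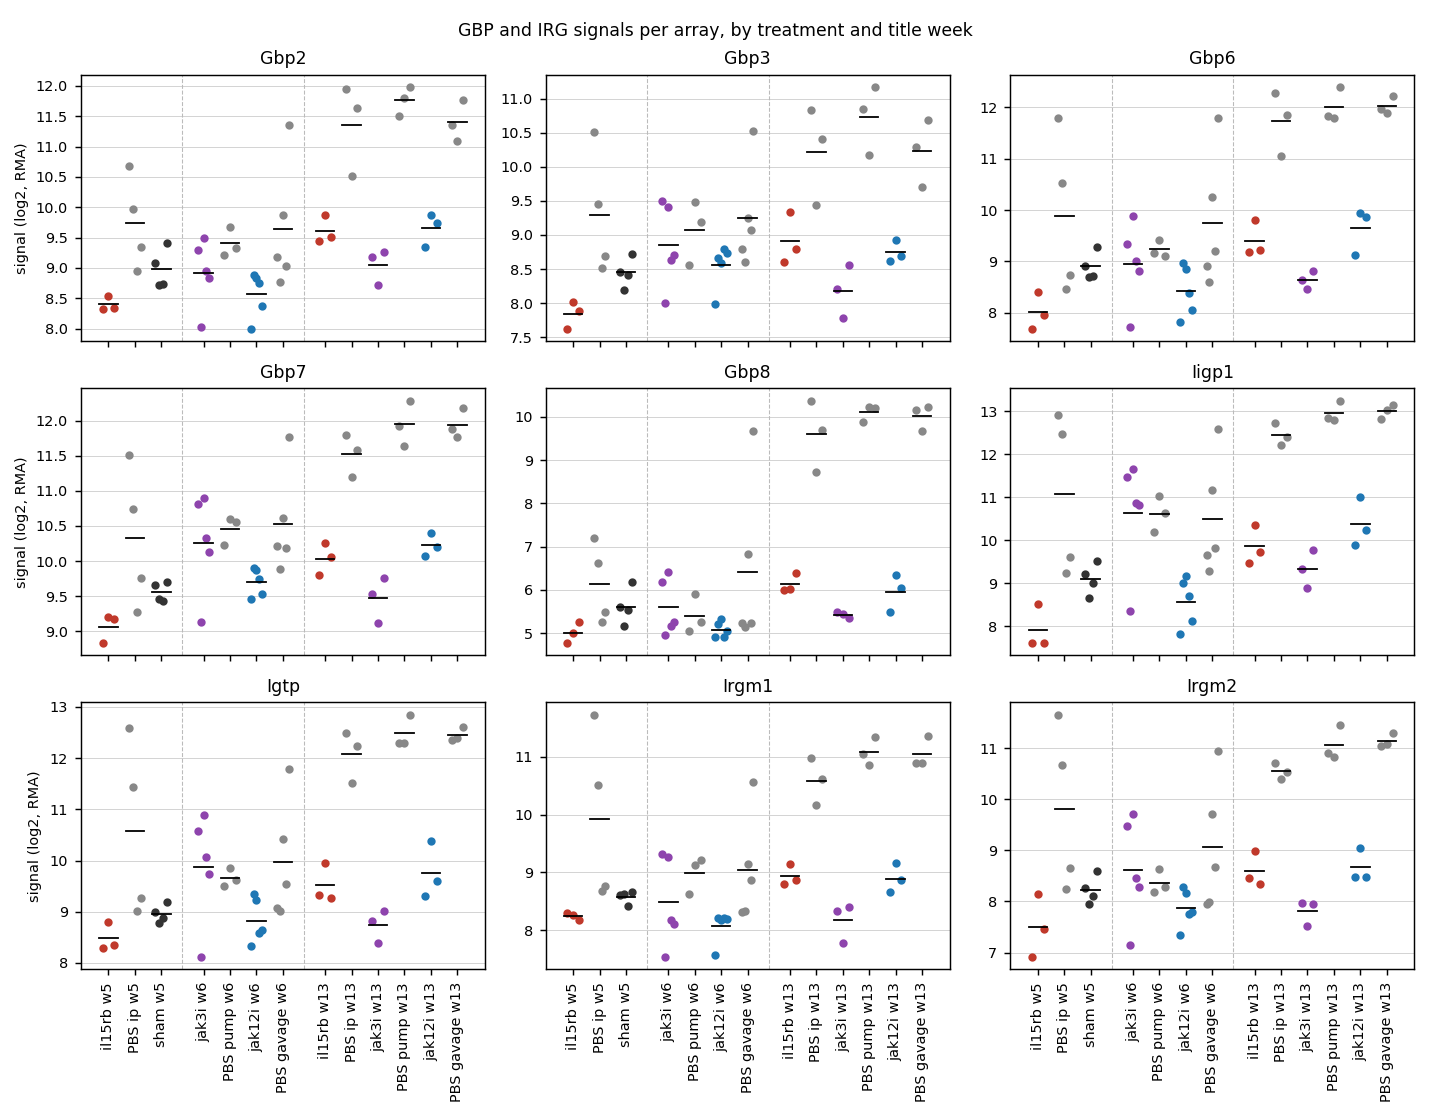
Log2 RMA signal of each gene on each of the 47 grouped arrays, by treatment and title week (w), with a bar at each group's mean. Red points are il15rb, purple points jak3i, blue points jak12i, grey points PBS and black points sham. The 9 PBS arrays of week 13 lie above the 9 treated arrays of that week in every panel, and 2 PBS ip arrays of week 5 and 1 PBS gavage array of week 6 are the highest of their groups.

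Other cell markers moved with the fall at week 13. Of 9 cytotoxic lymphocyte genes tested, 9 were lower with each of the 3 agents, led by Gzma, which encodes granzyme A, with a change of -4.89 with il15rb, -5.61 with jak3i and -4.35 with jak12i. The summed level of the 11 listed genes, as their mean log2 signal, was 5.92 to 6.24 with il15rb, against 7.59 to 8.97 with PBS ip, 5.97 to 6.06 with jak3i, against 8.24 to 8.94 with PBS pump, and 6.21 to 6.61 with jak12i, against 8.02 to 8.48 with PBS gavage. Of 8 T cell genes tested, 8, 7 and 5 were lower with il15rb, jak3i and jak12i. Only 1 of the 11 listed cytotoxic genes and 3 of 9 T cell genes on the arrays exceeded the filter's median on every array. Dim genes of both lists may thus have entered the test only through groups in which they were high, which favours falls in these counts. The part of T cells and cytotoxic lymphocytes in the change of the GTPase genes was not tested. Of 12 macrophage genes, at most 2 were lower in any of these comparisons. Skeletal muscle markers were higher in 9 of 10 genes with il15rb, and their mean level was 13.3 to 13.7 with il15rb, against 7.43 to 13.0 with PBS ip. With jak3i they were higher in 1 of 10 genes, at a mean level of 13.2 to 13.3, against 7.74 to 12.8 with PBS pump. Without the 3 PBS arrays lowest in muscle genes, PBS ip replicate 3 and PBS pump replicate 2 of week 13 and 1 array of week 6, all 9 members were still called with il15rb and with jak3i, and Gbp8 changed by -3.42 and -4.62. The week 13 arrays that remained averaged 10.7 and 13.0 with PBS ip and 11.9 and 12.8 with PBS pump, still below the treated arrays. The part of muscle in the members' change was not tested. Hair shaft keratins and their partners were lower in 10 of 11 genes with jak12i, and in none with il15rb or jak3i at an adjusted p of 0.05. Their mean level was 5.50 to 6.55 with jak12i, against 9.35 to 11.8 with PBS gavage. With il15rb it was 5.70 to 10.1, against 7.80 to 11.5 with PBS ip, and with jak3i 10.1 to 11.6, against 9.95 to 12.3. None of these genes exceeded the filter's median on every array, so the same limit holds for their counts.

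Of the signalling chain that leads to these GTPases, most kinases and transcription factors were lower at week 13, and neither receptor chain was called lower. Ifng itself had 4.54, 4.66 and 4.55 with il15rb, against 6.83, 5.62 and 6.99 with PBS ip, and it changed by -1.89 with il15rb, -2.07 with jak3i and -1.90 with jak12i. The treated values lie below 5.38, the highest 25th percentile of signals on any array of the week, a level called near background here. Each change of Ifng may thus be understated. Like Gbp8, Ifng exceeded the filter's median on PBS arrays alone, all of week 13, so it entered the test through groups in which it was high. Of its receptor chains, Ifngr1 was higher by 0.54 with il15rb (adjusted p = 0.0272) and by 0.50 with jak12i (adjusted p = 0.0461), and Ifngr2 did not pass in any of the 3. Of 11 kinases and transcription factors of the pathway, 7 were lower with il15rb, 9 with jak3i and 8 with jak12i. Irf1, the transcription factor that drives many of these genes, changed by -1.60, -2.06 and -1.52, and Stat2, a transcription factor of type I interferon signalling, by -1.13, -2.21 and -1.91. The feedback inhibitor Socs1 fell with all 3 agents, by 0.63 with il15rb, 1.10 with jak3i and 0.99 with jak12i on the log2 scale.

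Most of the listed genes that answer to the same interferon were also lower. Of 19 other interferon gamma targets, 17 were lower with il15rb, 16 with jak3i and 16 with jak12i, and the ubiquitin like modifier Ubd led with -5.49, -6.17 and -4.96. Of 6 other interferon GTPases with a probe set, 3, 5 and 4 were lower. Ifi47, an immunity related GTPase, changed by -2.17, -3.01 and -2.25, and Gbp2b, another guanylate binding protein, by -2.22, -3.14 and -2.26. Mx1, a dynamin like GTPase of the antiviral response, changed by -2.19 with jak3i and -1.48 with jak12i and did not pass with il15rb (-0.37, adjusted p = 0.34). Type I interferon targets, of which 10 were tested, were lower in 3 with il15rb, 10 with jak3i and 7 with jak12i. Among 10 tested partners at vacuoles and autophagosomes, Map1lc3b, the core protein of autophagosomal membranes, was higher with all 3 agents, by 0.40, 0.39 and 0.34, and Trim21, a ubiquitin ligase, changed by -0.68, -1.38 and -0.67.

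At week 6 no member passed the test with jak3i. Iigp1 had 11.48, 8.36, 11.67, 10.88 and 10.83 with jak3i, against 10.19, 11.02 and 10.65 with PBS pump. Igtp had 10.58, 8.11, 10.89, 10.07 and 9.74 with jak3i, against 9.50, 9.86 and 9.62 with PBS pump. In both genes jak3i replicate 2 was far below the others, and the remaining jak3i arrays lay within or above the PBS range. Replicate 2 was the lowest jak3i array for all 9 members. The change of Iigp1 was 0.02 ± 0.66 (95% interval from limma -1.31 to 1.35) and that of Igtp 0.22 ± 0.57. None of the 9 members was called by limma, while 3.64% of all genes were called lower, and 0 of 9 had an unadjusted p under 0.05. The changes ran from -0.51 for Irgm1 to 0.25 for Irgm2, and none of the 9 had groups that lay apart, against 6.67% of all genes apart and lower. Without jak3i replicate 2, Gbp6 and Gbp7 changed by 0.027 and 0.084, against -0.28 and -0.20 with it.

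Some other interferon genes in the same jak3i arrays were lower. Of 10 type I interferon targets, 8 were lower with jak3i than with PBS pump at week 6, led by Ddx60 (-2.37, adjusted p = 9.75e-05), Rtp4 (-2.03, adjusted p = 0.000311) and Oasl2 (-2.14, adjusted p = 0.000515). Usp18, an inhibitor of the type I receptor, changed by -1.52, Irf9 by -0.84 and the receptor chain Ifnar2 by -0.88. Of 19 other interferon gamma targets, 7 were lower, led by the major histocompatibility genes H2-Ab1 (-0.72) and H2-Aa (-0.50), their partner Cd74 (-0.83) and H2-D1 (-0.51). Macrophage markers were lower in 7 of 12 genes, and their mean level was 8.34 to 9.21 with jak3i, against 9.56 to 10.3 with PBS pump. The mean level of T cell genes was at most 6.93 with jak3i (median 6.89), against 7.21 to 7.24 with PBS pump, and that of cytotoxic lymphocyte genes 5.92 to 5.99, against 6.42 to 6.49, with 1 of 8 and 1 of 9 genes called lower. The part of these cells in the falls was not tested. Ifng was near background in both groups.

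**Figure D3:**
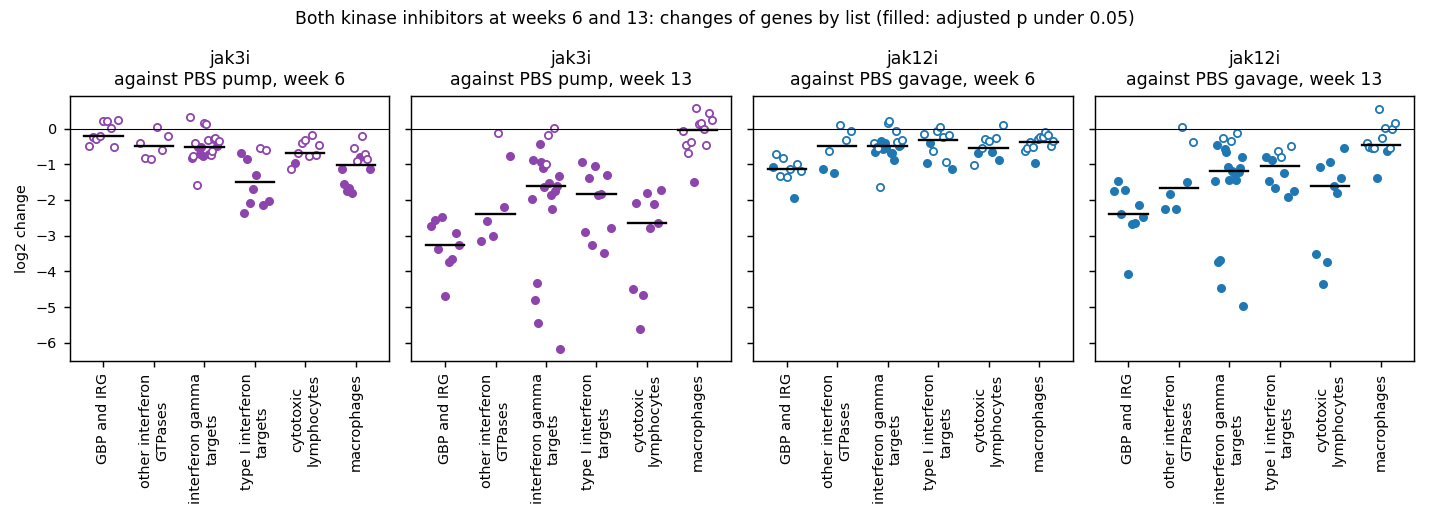
Log2 change of every tested gene of 6 lists with jak3i or jak12i, against PBS of the same route and week, one point a gene, filled where the adjusted p was under 0.05, with a bar at the list's median. With jak3i at week 6 the GBP and IRG points lie around 0 (median -0.20) while type I interferon targets lie lower (median -1.49), and at week 13 both lists lie below 0 (medians -3.25 and -1.84).

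With jak12i at week 6, 2 of 9 members were called lower than with PBS gavage, against 8.1% of all genes. Iigp1 had 7.81, 9.01, 9.17, 8.70 and 8.12 with jak12i, against 9.65, 9.29, 11.17, 9.83 and 12.59 with PBS gavage, a change of -1.94 ± 0.57 (adjusted p = 0.0241 by limma). Gbp2 had 7.99, 8.88, 8.84, 8.76 and 8.37 with jak12i, against 9.18, 8.76, 9.87, 9.04 and 11.35 with PBS gavage, a change of -1.07 ± 0.33 (adjusted p = 0.0351). PBS gavage replicate 5 was the highest array of its group for all 9 members, as Gbp8 shows with 9.68, against 5.15 to 6.82 in the other PBS gavage arrays and 4.91 to 5.32 with jak12i. All 9 changes were negative, from -0.70 for Gbp3 to -1.94 for Iigp1, and the groups lay apart for Iigp1 and Irgm1, against 6.35% of all genes apart and lower. Gbp8 was near background with jak12i, so its change of -1.35 may be understated, and without PBS gavage replicate 5 it was -0.53.

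Both calls of week 6 rested on few arrays. Without PBS gavage replicate 5, the change was -1.42 for Iigp1 (adjusted p = 0.121) and -0.64 for Gbp2 (adjusted p = 0.185), and 0 of 9 members were called. None was called either without PBS gavage replicate 3 or without jak12i replicate 1. Of all 13648 genes, 773 and 884 were then called in either direction. Without jak12i replicate 5, 1 member was called, beside 1305 of all genes. Without PBS gavage replicate 1, 4 were called, beside 1414, and without PBS gavage replicate 2, 5 were called, beside 1245. Skeletal muscle genes averaged 7.85 in PBS gavage replicate 5, the lowest level of its week, and 12.8 to 13.7 in the other PBS gavage arrays. The part of that difference in the members' change was not tested. Of the list of 11 kinases and transcription factors, 7 were lower with jak12i at week 6, among them Jak2 (-0.36), Irf8 (-0.85), Irf9 (-0.72) and Nlrc5 (-0.64). Of 10 type I interferon targets, 3 were lower, and of 19 other interferon gamma targets, 10.

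At week 5 the PBS ip arrays were spread widely, with replicates 2 and 3 the highest of the group for all 9 members. Iigp1 had 7.62, 8.51 and 7.61 with il15rb, against 12.93, 12.48, 9.24 and 9.62 with PBS ip. It had 9.21, 8.66, 9.02 and 9.52 in sham skins. Irgm2 had 6.91, 8.15 and 7.47 with il15rb, against 11.66, 10.67, 8.25 and 8.65 with PBS ip. PBS ip replicates 2 and 3 were the highest arrays of the week in both genes, while replicates 4 and 5 lay near the sham arrays. No member was called by limma with il15rb against PBS ip, against 0.0733% of all genes called lower, although 8 of 9 had an unadjusted p under 0.05, against 2.81% of all genes lower at that threshold. The groups lay apart for 8 of 9 members, all but Gbp8, against 4.3% of all genes apart and lower.

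The largest change of week 5 was that of Iigp1, -3.16 ± 0.69 (adjusted p = 0.0527), and the smallest that of Gbp8, -1.13 ± 0.60. The change of Gbp8 may be understated, because this gene was near background with il15rb. Without PBS ip replicates 2 and 3, an alternative chosen after seeing the data, Iigp1 changed by -1.52 and the other members by -0.36 to -0.94, and none was called. Without PBS ip replicate 4, 2 members were called, and without PBS ip replicate 5, 1. Of all 13648 genes, 14 and 3 were then called in either direction. The il15rb and PBS ip arrays differed in cytotoxic lymphocyte genes too, with a mean level of 5.85 to 6.03 with il15rb, against 6.33 to 6.82 with PBS ip, and 3 of 9 of those genes were called lower. The mean level of T cell genes was 6.82 to 6.91 with il15rb, against 7.28 to 7.41 with PBS ip, with 2 of 8 called lower, and that of macrophage genes was 8.62 to 8.73, against 8.91 to 9.61, with 0 of 12 called. The part of these cells was not tested.

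Against sham, the antibody and PBS ip groups lay on opposite sides, without a call. Il15rb against sham gave changes from -0.33 for Irgm1 to -1.19 for Iigp1, with 0 of 9 called by limma, against 0.0147% of all genes called lower, and 0 of 9 at an unadjusted p under 0.05. The groups lay apart for 6 of 9 members, against 6.9% of all genes. PBS ip against sham gave changes from 0.53 for Gbp8 to 1.97 for Iigp1, with 0 of 9 called, against 0.022% of all genes called higher, and 6 of 9 at an unadjusted p under 0.05, against 2.6% of all genes higher at that threshold. Without PBS ip replicates 2 and 3, the changes were -0.30 for Gbp6, -0.046 for Gbp7 and -0.24 for Gbp8, and 0.14 to 0.33 for the other 6 members. With all arrays, the groups lay apart for Irgm1 alone, against 2.4% of all genes apart and higher. Both comparisons share the sham arrays, and that of PBS ip shares its arrays with the comparison of il15rb.

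**Figure D4:**
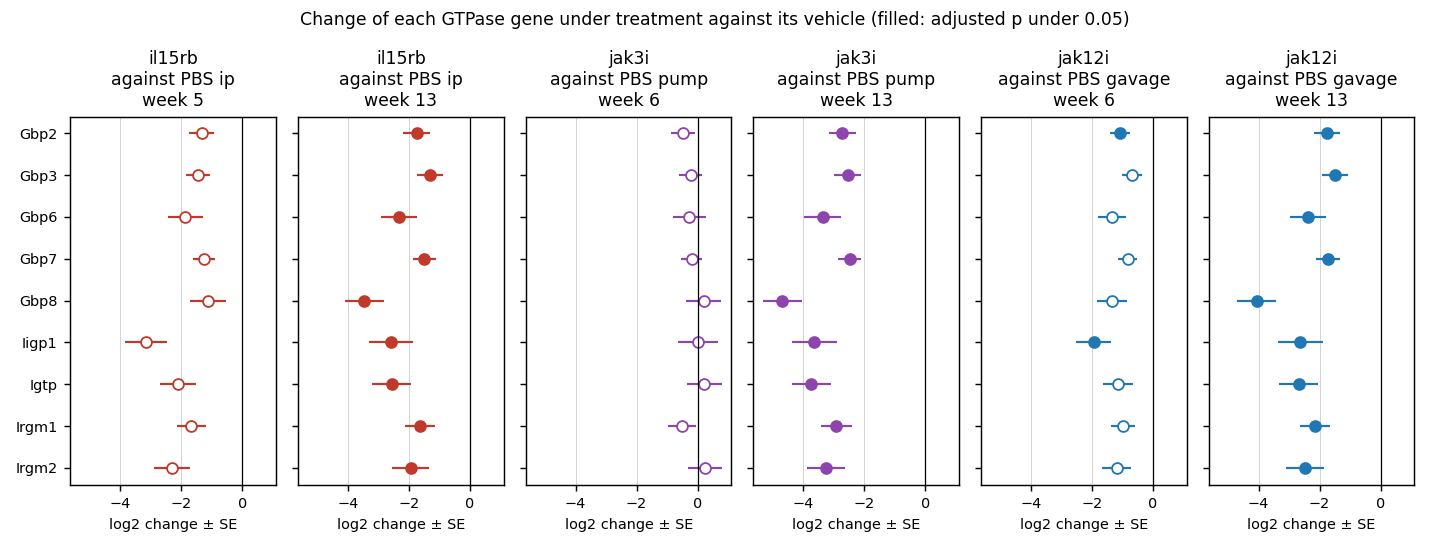
Log2 change (point) and its standard error (bar) for each gene in 6 comparisons of an agent with PBS of its route, filled where the limma adjusted p was under 0.05. All points of the week 13 panels are filled and lie below 0, from -1.31 to -4.68, while those of jak3i at week 6 lie around 0, from -0.51 to 0.25.

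The change with jak3i differed between the weeks for all 9 members. The members' mean signal per array was 7.67 to 9.74 with jak3i and 8.75 to 9.30 with PBS pump at week 6. At week 13 it was 8.01 to 8.54 with jak3i and 11.4 to 11.9 with PBS pump. Levels of different weeks were not tested against each other. The difference of effects, week 13 minus week 6, was -3.96 ± 0.85 for Igtp (adjusted p = 0.00252), and the smallest was -2.23 ± 0.58 for Gbp2 (adjusted p = 0.0116). For Gbp8 it was -4.89 ± 0.86 (adjusted p = 0.000389), but both groups of week 6 were near background, so the week 6 change of this gene was not measured and the difference has no firm size. All 9 members passed in limma, against 3.02% of all genes called lower, and 8 passed without PBS pump replicate 3 of week 13. Of 10 type I interferon targets, 1 passed in the same test. For jak12i the difference passed for Gbp8 alone, at -2.72 ± 0.81 (adjusted p = 0.0194), against 5.56% of all genes. Gbp8 entered the test through PBS arrays alone and was near background with jak12i at week 6. Its week 6 change may thus be understated, and the difference may be smaller in size. The other 8 differences with jak12i ran from -0.68 to -1.54. No member passed without jak12i replicate 1 or PBS gavage replicate 3 of week 13. Without PBS gavage replicate 5 and jak3i replicate 2 of week 6, 3 members passed. Of all 13648 genes, 2405 were then called in either direction. For il15rb, week 13 minus week 5, no member passed in limma, against 4.07% of all genes, and 1 of 9, Gbp8, had an unadjusted p under 0.05 (-2.34 ± 0.88, adjusted p = 0.079), against 11.7% of all genes lower at that threshold. Gbp8 was near background with il15rb at week 5.

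The agents were also set against each other. At week 13 jak3i skins had lower signals than jak12i skins for all 9 members, by 0.53 to 1.05 on the log2 scale, and the groups lay apart for 8 of them, against 9.07% of all genes. None was called by limma, against 0.572% of all genes called lower, and 0 of 9 had an unadjusted p under 0.05. For Gbp7 the difference was -0.76 ± 0.39, with a 95% interval of -1.55 to 0.03. Jak3i against il15rb gave differences from -0.53 to -0.78, with 8 of 9 members apart, against 12.6% of all genes, and 0 of 9 called or at an unadjusted p under 0.05, against 0.249% of all genes called lower. Jak12i against il15rb gave differences from -0.17 to 0.52, with 0 of 9 called or at an unadjusted p under 0.05, against 0.0366% of all genes called higher. These 3 comparisons share arrays, and each route had its own PBS group.

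Taking each agent's change against its own PBS, jak3i minus jak12i at week 13 ran from -0.62 to -1.07, with 0 of 9 members and 0% of all genes called lower by limma, and 0 of 9 at an unadjusted p under 0.05. At week 6 the same difference ran from 0.47 for Irgm1 to 1.97 for Iigp1, with 0 of 9 called, against 1.55% of all genes called higher, and 2 of 9 at an unadjusted p under 0.05, against 11.3% of all genes. For Iigp1 its 95% interval was 0.21 to 3.73.

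The members rose and fell together from array to array. After each gene's mean per week was subtracted, the 36 pairs of members had Pearson correlations from 0.83 to 0.98 over the 47 arrays (median 0.95). After group means were subtracted, which leaves only the spread between arrays of 1 group, they ran from 0.77 to 0.97 (median 0.91). Pairs that include Gbp8 ran from 0.77 to 0.90, and pairs without it from 0.83 to 0.97. These points share arrays and, as a description, carry no test. Within groups the same array was often the highest for all members, as PBS ip replicate 2 of week 5, PBS gavage replicate 5 of week 6 and PBS ip replicate 1 of week 13 were for all 9.

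The 10 other genes whose week-centred signal followed the members' mean most closely over the 47 arrays were Gbp2b (r = 0.98), Psmb10 (0.97), Ifi47 (0.95), Cd274 (0.94), Irf1 (0.93), Gm4951 (0.93), AW112010 (0.93), Cxcl9 (0.91), Psmb9 (0.91) and Tap2 (0.89). With group means subtracted, r was 0.95 for Gbp2b, 0.91 for Psmb10, 0.85 for Irf1 and 0.67 for Tap2. Psmb9 and Psmb10 are subunits of the immunoproteasome, Tap2 is part of the peptide transporter that feeds class I molecules, Cd274 encodes PD-L1 and Cxcl9 is a chemokine for T cells. Ifng had r = 0.77 by week and 0.41 by group, and it was near background on most arrays.

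Over the groups, the levels of the members followed one order only in part. The mean of the 9 signals per array was 10.6 to 11.9 in the 9 PBS arrays of week 13, against 8.01 to 9.46 in the 9 treated arrays of that week. At week 6 it was 7.67 to 9.74 with jak3i and 7.69 to 8.50 with jak12i, against 8.75 to 9.30 with PBS pump and 8.40 to 11.2 with PBS gavage. At week 5 it was 7.59 to 8.10 with il15rb, against 8.41 to 11.2 with PBS ip and 8.25 to 8.80 in sham skins. The spread within groups was widest in PBS ip at week 5, with SDs of 0.76 to 1.91 over the members, and PBS gavage at week 6, with 0.73 to 1.95, while jak3i at week 13 had 0.07 to 0.44. Levels of different weeks are set side by side without a test.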

How the data were processed

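Skin RNA was measured on 48 Affymetrix mouse arrays. The authors deposited log2 signals for 45101 probe sets, and RMA is the only tool in the submitters' processing notes, without a version. All value columns were used (0 were left out). Members and gene lists were chosen with earlier results of these data known. A single symbol was annotated to 34958 probe sets, several symbols to 932 and none to 9211. The Entrez identifiers of 34754 were found in RefSeq, and taking the RefSeq symbol renamed 0 probe sets. One probe set stood for each of the 18194 genes, the one with the highest mean, and 13648 genes that exceeded the median of all values, 6.70, on 3 or more arrays were tested. Group means were fitted over 47 arrays with limma 3.58.1 (R 4.3.3), variances were moderated by empirical Bayes, and calls used Benjamini-Hochberg adjusted p-values under 0.05 in each comparison. The code was tested on simulated data. A change is said to be possibly understated where the dimmer group's mean was under the 25th percentile of signals on some array of its week. Deviations from group means correlated by -0.49 to 0.24 between arrays of equal replicate number, so no comparison was paired. Genes named are the 9 members, up to 4 genes of smallest p per list and comparison, and the 10 most like the members' mean. Of 8 keratinocyte markers, 8 were above the median on every array. Alternatives covered the filter, scaling, probe sets, the samples fitted, array weights, a replicate block, the placing of the conflicting array, the PBS group, left-out replicates and arrays that stand apart. The number of arrays limits the precision. Promoter sequences are from RefSeq (GRCm38.p6). Gbp4, Gbp5, Gbp9, Gbp10, Gbp11, Tgtp1, Tgtp2, Gm12250 and Gvin1 were not analysed here.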

Additional observations from a re-analysis of the deposited data

Results flagged for a closer look

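Single arrays stood apart from the rest of their group for 3 members. Iigp1 was 8.36 in jak3i replicate 2 of week 6, below 10.83 to 11.67 in the other 4 arrays. Gbp3 was 7.98 and Irgm1 7.56 in jak12i replicate 1 of week 6, below the other 4 arrays of that group. Chance alone places about 1 in 20 groups apart by this measure (Dixon's ratio at 95%).

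The change with jak3i differed between weeks 13 and 6 for all 9 members. The differences were -2.23 for Gbp2, -2.32 for Gbp3, -3.09 for Gbp6, -2.28 for Gbp7, -4.89 for Gbp8, -3.67 for Iigp1, -3.96 for Igtp, -2.41 for Irgm1 and -3.50 for Irgm2 on the log2 scale. With jak12i the difference passed for Gbp8, at -2.72. Gbp8 was near background at week 6 with both agents and with PBS pump, so its 2 differences have no firm size.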

How the results depend on the processing

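The number of members called at week 13 stayed at 9 with jak3i under all 16 alternatives, lay between 6 and 9 with il15rb and between 8 and 9 with jak12i under 15 each, and stayed at 0 under all alternatives for PBS ip against sham, il15rb against sham and jak3i against PBS pump at week 6. Numbers in parentheses below count the genes called in either direction, out of all 13648 tested. With il15rb against PBS ip at week 5 the member count was 0. It became 1 with array medians subtracted (13) and with the conflicting array placed by its treatment label (24), and 3 with array weights (469). With 1 replicate left out it was 0 to 2. With jak12i at week 6 the count of 2 became 1 with quantile normalization (1046 of all genes) and the mean of probe sets (1465). It was 1 with the replicate block (1156), with PBS of the other route (3975) and without 3 arrays high in hair shaft genes (708). It became 0 with only the groups compared, with array weights, without 3 arrays low in skeletal muscle genes, and without 1 PBS gavage and 1 jak3i array, and it was 0 to 5 with 1 replicate left out. The difference of effects of il15rb between weeks had 0 members called. It had 3 with array weights, where 5212 of all genes were called. It had 1 with the conflicting array placed by its title (1813) and with PBS of all routes (1709). It also had 1 without the muscle arrays (844) and without both high PBS ip arrays (914), and 0 to 1 with 1 replicate left out. The difference of effects of jak12i had 1, against 0 with quantile normalization, with only the groups compared and without the hair arrays. It had 2 with array weights (3615 of all genes) and with PBS of the other route (4719). It had 3 without 1 PBS gavage and 1 jak3i array (2405), and 0 to 1 with 1 replicate left out. The difference of effects of jak3i minus jak12i at week 6 had 0, against 1 with PBS of the other route, where 6575 of all genes were called. The cause of these shifts was not tested beyond the smaller samples themselves. The replicate numbers did not pair the arrays, and the replicate block changed the count in no other comparison beyond 1.5 times.

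Changes of sign were seen for members that had not passed. Without both high PBS ip arrays, the change against sham was -0.30 for Gbp6, -0.046 for Gbp7 and -0.24 for Gbp8. For jak3i at week 6, without 1 PBS gavage and 1 jak3i array, it was 0.027 for Gbp6 and 0.084 for Gbp7. With array weights it was -0.065 for Gbp8 and -0.26 for Iigp1, with the replicate block -0.15 for Iigp1, and with PBS of the other route -0.82 for Gbp8, -0.093 for Igtp and -0.45 for Irgm2. With 1 replicate left out, it ran from -0.51 to 0.027 for Gbp6, -0.36 to 0.084 for Gbp7, -0.0018 to 0.45 for Gbp8, -0.23 to 0.60 for Iigp1, -0.035 to 0.66 for Igtp and -0.027 to 0.62 for Irgm2. The cause was not tested. Gbp2 (adjusted p = 0.0527) and Gbp3 (adjusted p = 0.0886) did not pass with il15rb at week 13 when only the groups compared were fitted. Gbp8 lay near background in the treated groups of weeks 5 and 6 and in PBS pump at week 6, which limits its measured change.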

Other observations

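The array with conflicting labels, titled PBS ip at week 5 and labelled as antibody treated, had log2 signals of 8.74 for Gbp2, 7.81 for Gbp3, 8.20 for Gbp6, 9.13 for Gbp7, 5.04 for Gbp8, 7.95 for Iigp1, 8.32 for Igtp, 8.42 for Irgm1 and 7.55 for Irgm2. These lie below every PBS ip array of that week for all 9 members, and within the range of the il15rb arrays for 7 of them, all but Gbp2 and Irgm1.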
